A study of Mus musculus with 5 samples.

Results

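Blood vessel endothelial cells of mouse lungs that carried metastases were examined here. They were the cells that the authors' deposited cell table names Endothelial, 4848 of the 23852 cells in 5 single-cell RNA sequencing libraries and of the 22118 cells given a type. Lymphatic endothelial cells, which the authors annotated as a type of their own (LECs, 40 cells), were left out.

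Endothelial cells line every blood vessel. In the lung most of them form the capillaries around the alveoli, where a thin wall lets gas pass between air and blood. Cancer cells that arrive through the blood meet this wall first, and they have to attach to it and cross it before they can grow in the tissue. Endothelial cells are recognised by the adhesion molecule Pecam1, the junction proteins Cdh5 (VE-cadherin) and Cldn5, and Kdr, the main receptor for vascular endothelial growth factor (VEGF).

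All mice were female BALB/c animals that were 6 weeks old at the first injection. They received intravenous injections of 200 µL, 3 times a week for 3 weeks, of medium conditioned by 4T1 mouse mammary tumors, here called tumor-secreted factors (TSF), or of control medium (CM). All groups were then given 25000 4T1 cells that expressed the CD90.1 marker intravenously. Lungs were taken at day 11 (mice of 10 weeks) or day 16 (mice of 11 weeks). Each library pooled the lungs of 3 mice. There were no mice without cancer cells among the libraries, so CM is the reference throughout, and the 4 groups were CM and TSF at day 11 and CM and TSF at day 16.

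The libraries held 3835 to 5580 cells each, and their totals ranged from 13240822 to 21451787 UMIs (unique molecular identifiers, 1 per captured RNA molecule). TSF at day 11 had 2 libraries, TSF a and TSF b. Their endothelial cells spread over fine clusters in the same proportions within sampling noise (chi-square = 30.3, df = 28, p = 0.347), while all other pairs of libraries had values of at least 51.4. Their endothelial shares also differed by less than that noise (chi-square = 0.487, p = 0.485), but this held for TSF a and CM at day 16 as well (chi-square = 0.108), so the merging rests on the clusters. Both were therefore merged into 1 sample by taking their mean. Whether they came from separate pools of mice is not given in the sources used here. They were not the same cells, since they shared 46 of their barcodes and the other pairs of libraries shared 14 to 37, with at most 3 of these on endothelial cells. Since each group then had a single sample, the groups were not tested against each other. All intervals are 95% intervals for counting error, and none measures the spread between mice.

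The label could not be checked against Pecam1, Cdh5, Cldn5 and Kdr in the endothelial cells themselves, because expression of single endothelial cells was not analysed here. The authors annotated fine clusters to cell types by hand, so counts by cluster describe the label and do not check it. The 4848 cells lay in 34 of 169 fine clusters, and 29 clusters with at least 50 endothelial cells held 4806 of them. Endothelial cells made up between 76.6% and 100% of all cells in those 29 clusters. The remaining 42 cells were in 5 clusters that were led by doublets or, in 1 case, by LECs. Cdh5, Cldn5 and Kdr were among the 1000 highly variable genes that the authors used for clustering, and Pecam1 was not.

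The first question was how large a part of the lung the endothelial cells made up after priming with TSF. The TSF library of day 16 stood apart from the other 4. Endothelial cells were 855 of 3738 annotated cells in CM at day 11 (22.9%, interval 21.5 to 24.3%). They were 1260 of 5113 in TSF a (24.6%, interval 23.5 to 25.8%) and 1213 of 4804 in TSF b (25.2%, interval 24.0 to 26.5%). At day 16 they were 868 of 3567 in CM (24.3%, interval 22.9 to 25.8%) and 652 of 4896 in TSF (13.3%, interval 12.4 to 14.3%). The first 4 intervals overlap one another, and the last lies below all of them.

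At day 16 the share in TSF was 0.547 times that in CM (interval 0.494 to 0.606). At day 11 it was 1.09 times (interval 1.01 to 1.18), or 1.08 with TSF a alone and 1.10 with TSF b alone. Over time, the share in CM at day 16 was 1.06 times that of day 11 (interval 0.967 to 1.17), and in TSF it was 0.534 times (interval 0.489 to 0.582). The same TSF library of day 16 enters both low ratios. By RNA in place of cells, endothelial cells held 21.5% to 23.7% of the UMIs of annotated cells in the first 4 libraries and 10.1% in the TSF library of day 16.

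Of 17 cell types with at least 50 cells in the libraries of day 16 together, 4 were lower in TSF by over 1.5-fold, which is 23.5%. Endothelial cells had the lowest ratio of the 17, and they were followed by T cells (0.607, interval 0.540 to 0.683, which overlaps theirs), B cells (0.622) and the type named Alv Macro (0.635). Granulocytes moved with this result. Their share of annotated cells was 29.1% in TSF at day 16 and 4.47% to 6.00% in the others. With granulocytes left out, the endothelial share was 18.8% in TSF and 25.9% in CM at day 16, a ratio of 0.726 (interval 0.655 to 0.804). Among cells that were neither immune nor cancer cells, endothelial cells made up 39.3% in TSF and 50.6% in CM (ratio 0.777, interval 0.700 to 0.861). The same share was 47.6% in CM and 49.6% and 51.3% in the TSF libraries of day 11. Shares do not show whether the number of endothelial cells in a lung changed, since cells per lung were not analysed here.

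**Figure D1:**
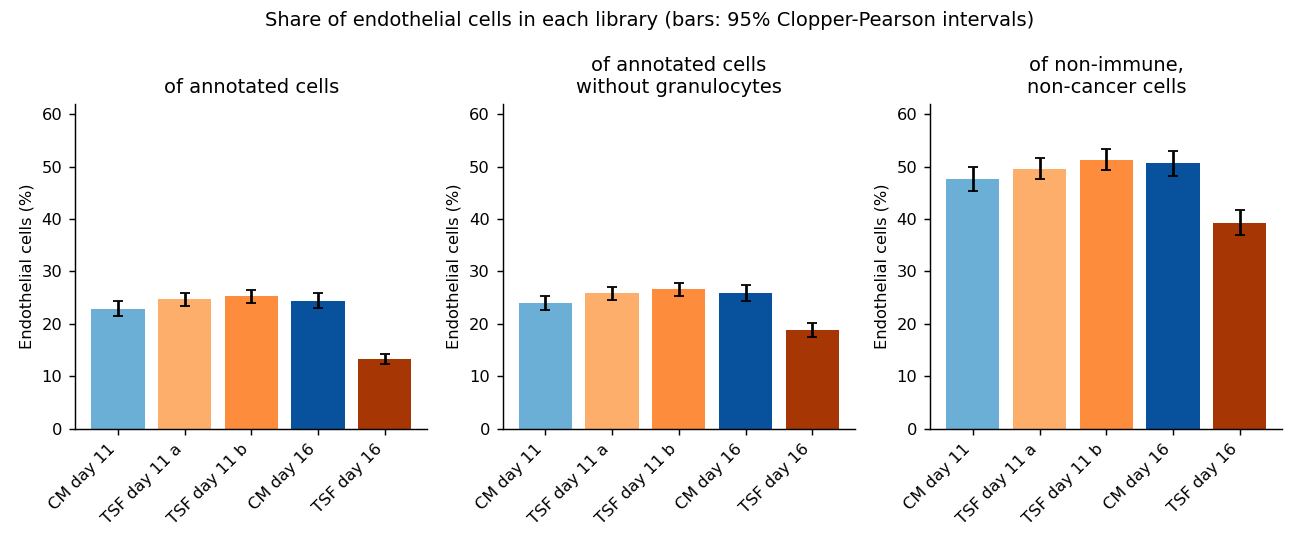
Percent of endothelial cells (vertical axis) in each of the 5 libraries, over annotated cells (left), annotated cells without granulocytes (middle) and non-immune, non-cancer cells (right), with 95% Clopper-Pearson intervals as error bars. The TSF library of day 16 is the lowest in all 3 panels, at 13.3%, 18.8% and 39.3%.

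Cells that neighbour the vessels gave denominators that no immune cell enters. Fibroblasts, which build the connective tissue around vessels and alveoli, were matched by 2.54 endothelial cells each in CM at day 11, 2.69 and 2.87 in TSF a and TSF b, 2.30 in CM at day 16 and 1.44 in TSF at day 16. At day 16 the ratio of TSF to CM was 0.627 (interval 0.527 to 0.746), against 1.10 at day 11 (interval 0.941 to 1.27). Per myofibroblast, a contractile matrix-forming cell, there were 8.72, 9.20 and 9.63 endothelial cells at day 11. At day 16 there were 8.43 in CM and 5.17 in TSF (ratio 0.614, interval 0.459 to 0.820).

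The alveolar epithelium gave a like picture at day 16. Per cell of type ACT1, the flat alveolar cell that faces the capillary, there were 10.5 endothelial cells in CM and 6.94 in TSF (ratio 0.663, interval 0.479 to 0.917). At day 11 this ratio was 1.41 (interval 1.07 to 1.84), from 9.29 in CM and 12.5 and 13.8 in the TSF libraries. Per cell of type ACT2, the surfactant-producing alveolar cell, there were 6.38 endothelial cells in CM and 3.36 in TSF at day 16 (ratio 0.527, interval 0.410 to 0.675). This denominator itself differed between the CM libraries, with 2.76 endothelial cells per ACT2 cell at day 11, and in TSF the value of day 16 was 1.00 times that of day 11 (interval 0.838 to 1.21). The low ratio to ACT2 cells at day 16 thus came with a high CM value, and for fibroblasts, myofibroblasts and ACT1 cells it came with a low TSF value.

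Pericytes, the contractile cells that wrap capillaries, were the exception among the neighbours. There were 18.6 endothelial cells per pericyte in CM at day 11, 10.0 and 11.1 in TSF a and TSF b, 8.59 in CM at day 16 and 6.46 in TSF at day 16. The CM library of day 11 was high and the other 4 were lower. The ratio of TSF to CM was 0.568 at day 11 (interval 0.400 to 0.788) and 0.751 at day 16 (interval 0.554 to 1.02), so the direction at day 16 was not resolved. Only 46 pericytes were found in the CM library of day 11, against 101 to 126 in the others. From day 11 to day 16 the ratio to pericytes was 0.462 in CM (interval 0.315 to 0.671) and 0.611 in TSF (interval 0.476 to 0.795).

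Lymphatic endothelial cells were too few to serve as a denominator. The libraries held 9 (CM, day 11), 9 and 11 (TSF, day 11), 6 (CM, day 16) and 5 (TSF, day 16). They made up 0.686% to 1.04% of blood and lymphatic endothelial cells together. The number of endothelial cells per LEC was 0.901 times as high in TSF as in CM at day 16, but the interval ran from 0.228 to 3.75, so neither a loss of blood vessel cells relative to lymphatic ones nor the reverse was detectable at this depth.

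**Figure D2:**
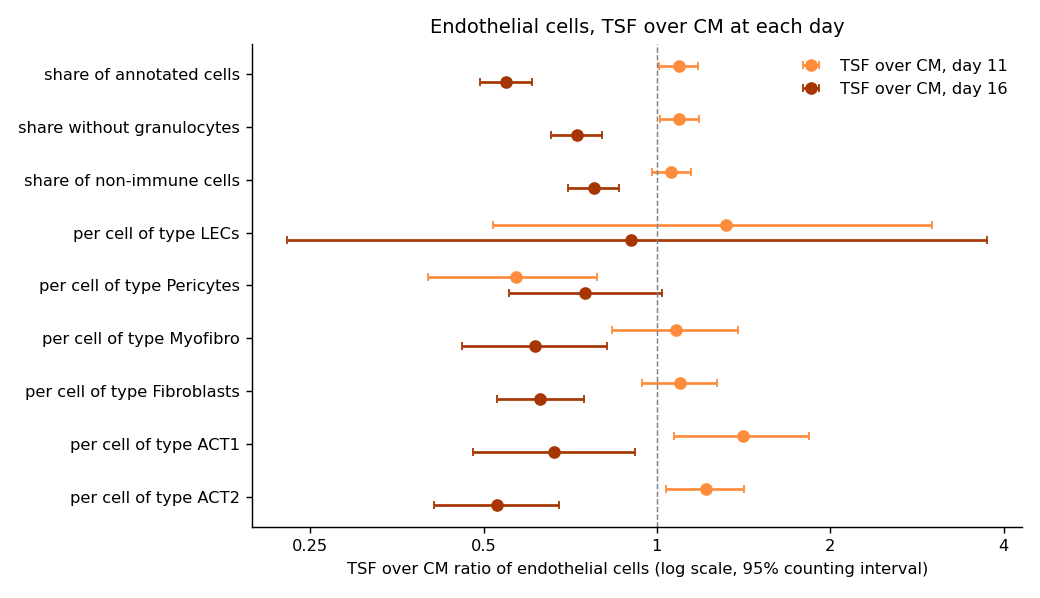
Ratio of TSF over CM (horizontal axis, log scale) for the endothelial share under 3 denominators and for endothelial cells per cell of 6 other types, at day 11 and day 16, with 95% counting intervals. At day 16 all intervals lie below 1 except those for LECs and pericytes, and at day 11 only the interval for pericytes lies below 1.

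The second question was whether the endothelial cells themselves differed in captured RNA. They carried less RNA than the other non-immune cells of the same library, and they carried more at day 16 than at day 11. The median was 2240 UMIs per endothelial cell in CM at day 11 (quartiles 1468.5 and 3336.5), 2135 and 2142 in TSF a and TSF b, 2793.5 in CM at day 16 (quartiles 1569.25 and 4217.25) and 2428 in TSF at day 16 (quartiles 1625 and 3739.25). The quartiles of all 5 libraries overlap widely. At day 16 the TSF median was 0.869 times that of CM, and at day 11 it was 0.955 times. From day 11 to day 16 the endothelial median rose 1.25-fold in CM and 1.14-fold in TSF. The median of ACT2 cells rose more (1.27 and 1.20), and that of fibroblasts less (1.15 and 1.02). It was 1.08 and 0.945 times in myofibroblasts and 0.980 and 0.767 times in ACT1 cells. The rise was thus not particular to endothelial cells.

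Other non-immune cells moved in the same direction at day 16, with medians of 3926 UMIs in CM and 3405 in TSF. Divided by that median, the endothelial median was 0.712 in CM and 0.713 in TSF at day 16, so relative to the other non-immune cells the difference was gone. The same quotient was 0.594 in CM and 0.618 and 0.595 in TSF at day 11. Between days it also depends on the mix of the other cells. In CM, ACT2 cells were 8.29% of annotated cells at day 11 and 3.81% at day 16. Genes detected per endothelial cell followed the UMIs, with medians of 1276 (CM), 1212.5 and 1219 (TSF) at day 11 and 1492 (CM) and 1359.5 (TSF) at day 16. Among endothelial cells with 1500 to 3000 UMIs, which removes most of the difference in depth, the medians at day 16 were 1260 genes in CM (270 cells) and 1252.5 in TSF (296 cells).

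The percent of UMIs from mitochondrial genes, a sign of stressed or damaged cells as well as of cells rich in mitochondria, differed by day and less by treatment. Its median in endothelial cells was 2.58% in CM at day 11, 2.60% and 2.82% in TSF a and TSF b, 3.30% in CM at day 16 and 3.48% in TSF at day 16. The median of day 16 was 1.28 times that of day 11 in both CM and TSF. The ratio of TSF to CM was 1.05 at each day. Cells with over 5% mitochondrial UMIs were 10.6% of endothelial cells in CM at day 11 (interval 8.66 to 12.9%) and 11.8% and 13.7% in TSF. At day 16 they were 24.0% in CM (interval 21.2 to 26.9%) and 27.3% in TSF (interval 23.9 to 30.9%), so both libraries of day 16 lay above all libraries of day 11.

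Among the other non-immune cells, the same share was higher at day 16 than at day 11 in TSF and lower in CM. Of them, 16.1% in CM and 11.4% and 14.4% in TSF had over 5% mitochondrial UMIs at day 11, and 11.9% in CM and 16.1% in TSF did so at day 16. Of 5 non-immune types with at least 50 cells in every library, endothelial cells had the highest ratio of day 16 to day 11 in the median. It was 1.28 in CM, against 1.03 to 1.15 in ACT1, ACT2, fibroblasts and myofibroblasts. In TSF it was also 1.28, against 1.04 to 1.24. Among endothelial cells with 1500 to 3000 UMIs the medians were 2.55% in CM and 2.56% and 2.74% in TSF at day 11, and 3.09% in CM and 3.41% in TSF at day 16. The order of the days was the same in this narrower range of depth, in which the median UMIs were 2039 to 2162 at day 11 and 2195 and 2216 at day 16. The mice of day 16 were also older, and day, age and library preparation cannot be told apart.

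**Figure D3:**
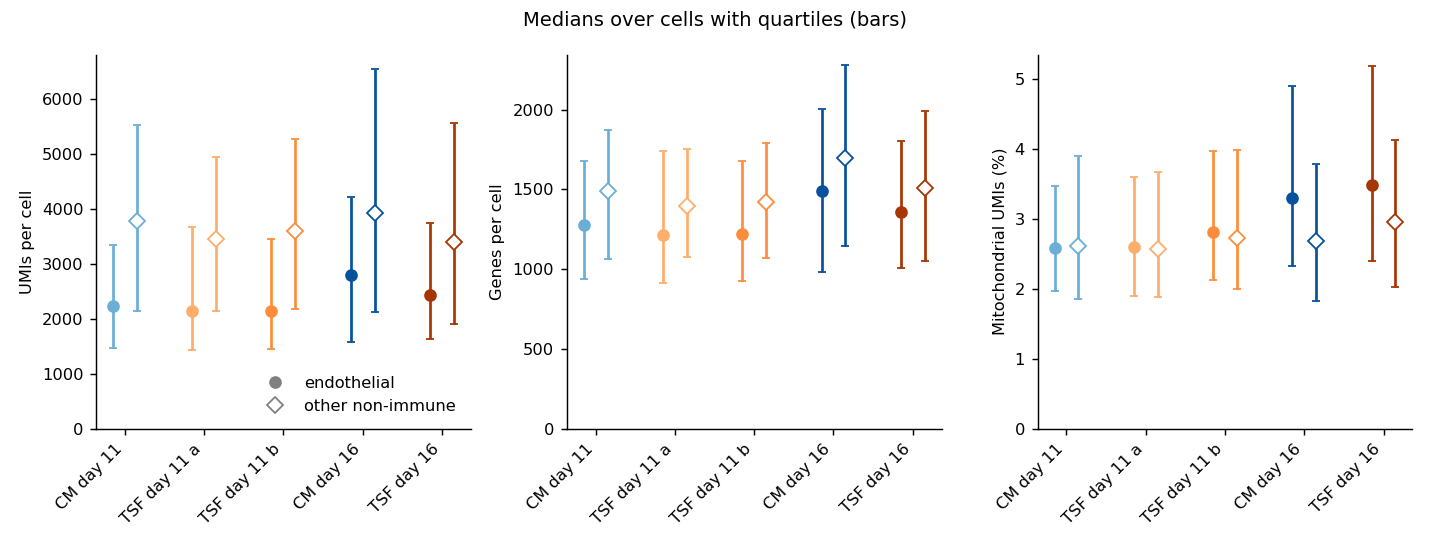
Medians over cells (symbols) with quartiles (bars) of UMIs per cell, genes per cell and percent of mitochondrial UMIs, for endothelial cells (filled circles) and other non-immune cells (open diamonds) in each library. Endothelial cells have fewer UMIs than the other cells in every library, and their mitochondrial medians of 3.30% and 3.48% at day 16 lie above the 2.58% to 2.82% of day 11.

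The third question was whether endothelial cells of the 4 groups were of the same kinds. The authors' fine clusters gave the only view of this here. They were computed from expression in all libraries together, so a cluster that differs in size between libraries may reflect a library as well as a state of the cells. The clusters are given by number, and no vessel type is assigned to them. Among the 29 clusters the median depth of endothelial cells ran from 1095 to 6144 UMIs, so the clusters also differed widely in depth. The largest, cluster 7, held 283 endothelial cells.

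The profile over clusters shifted more between days than between treatments. The share of endothelial cells that would have to change cluster to turn 1 library's profile into another's was 9.30% between TSF a and TSF b, which may or may not include a difference between mice. It was 13.6% between TSF and CM at day 16, and 20.2% and 17.2% between TSF a and TSF b and CM at day 11. Between days it was 25.0% in CM and 38.7% and 35.4% in TSF. Of the 12 cell types with at least 50 cells in every library, endothelial cells ranked 6 from the highest between the CM libraries and 10 between the libraries of day 16. In the other 11 types the distance between the CM libraries ran from 13.2% to 63.5% with a median of 24.8%, and the distance between the libraries of day 16 ran from 10.3% to 75.0% with a median of 19.9%. The shift between days was thus not particular to endothelial cells.

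Counted by cluster, the same order was seen. The share of endothelial cells in a cluster differed by over 1.5-fold between TSF and CM at day 16 in 10 of 29 clusters (34.5%), beside 54.2% of the 83 clusters of the other cell types. At day 11 it did so in 12 clusters (41.4%, beside 36.1% in the other types). Between days it did so in 16 clusters in CM (55.2%, beside 65.1%) and in 22 clusters in TSF (75.9%, also beside 65.1%). By the 1.5-fold rule the endothelial counts were thus close to or below those of the other types, except between days in TSF and, by a little, at day 11. Clusters with few cells pass the fold more easily by counting error. Other types held as few as 68 cells in a library (M2 Macro), so a lower endothelial count is not read as greater stability. Neutrophil clusters 37 and 88 lacked a ratio in some comparisons and were not counted as differing there. Intervals that left out 1 were found for 2 clusters at day 16, 10 at day 11, 10 between days in CM and 20 between days in TSF. No allowance was made for the number of clusters read, so some of these can arise by counting error alone. Intervals were not counted for the other types. They also narrow with more cells, and TSF had 1260 and 1213 endothelial cells at day 11 but 652 at day 16.

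The shift between days went the same way in CM and TSF, which share no library. Of the 29 clusters, 25 moved in the same direction in both. Agreement of this kind was not counted for the other cell types, so it is not read as particular to endothelial cells. There were 5 clusters higher by over 1.5-fold at day 16 in CM, and all 5 were also higher by over 1.5-fold in TSF. Of 11 clusters lower in CM, 9 were lower by over 1.5-fold in TSF, and none moved past 1.5-fold the opposite way. The 5 higher clusters, which were chosen on the CM libraries, held 9.44% and 11.7% of the endothelial cells in TSF a and TSF b and 32.8% in TSF at day 16, a ratio of 3.10 (interval 2.58 to 3.74). The 11 lower clusters held 53.0% and 49.5% in TSF a and TSF b and 19.9% at day 16, a ratio of 0.389 (interval 0.322 to 0.466).

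Single clusters show the size of these shifts. Cluster 63 held 1.17% of endothelial cells in CM at day 11, 1.43% and 2.06% in TSF a and TSF b, 5.99% in CM at day 16 and 5.06% in TSF at day 16. Cluster 40 held 4.21%, 2.62% and 2.23% at day 11 and 8.41% in CM and 9.36% in TSF at day 16. Both were high in both libraries of day 16. Cluster 22 was the reverse, with 3.74% in CM and 8.97% and 7.75% in TSF at day 11 and 1.27% in CM and 1.69% in TSF at day 16. Cluster 58 held 22 cells in CM and 79 and 63 in TSF at day 11, but only 3 in CM and 4 in TSF at day 16.

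At day 11 some of these clusters also separated the treatments. Clusters 22 and 58 each took a share 2.23 times as large in TSF as in CM (intervals 1.54 to 3.36 and 1.42 to 3.67), and cluster 100 a share 2.14 times as large (interval 1.15 to 4.31). Clusters 7 and 40 took a smaller share in TSF, at 0.564 (interval 0.385 to 0.832) and 0.575 times (interval 0.375 to 0.897). TSF a and TSF b lay on the same side of CM in all 5. None of the 5 had an interval apart from 1 at day 16, where their ratios were 1.33, 1.78, 6.66, 0.939 and 1.11. Cluster 100 then rested on 1 cell in CM and 5 in TSF.

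At day 16 itself, 2 of the 29 clusters had an interval apart from 1. Each cluster was read against its own interval, with no allowance for the number of clusters. Among 29 clusters a count this small can arise by counting error alone, so both are only described here. Cluster 76 held 43 of 652 endothelial cells in TSF (6.60%) and 22 of 868 in CM (2.53%), a ratio of 2.60 (interval 1.52 to 4.57). In the 3 libraries of day 11 it held 2.14% to 2.69%, so the TSF library of day 16 was high and the other 4 were alike. Cluster 91 held 15 cells in TSF (2.30%) and 5 in CM (0.576%), a ratio of 3.99 (interval 1.38 to 14.0), and between 2.69% and 3.57% in the libraries of day 11. For cluster 91 it was thus the CM library of day 16 that was low.

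**Figure D4:**
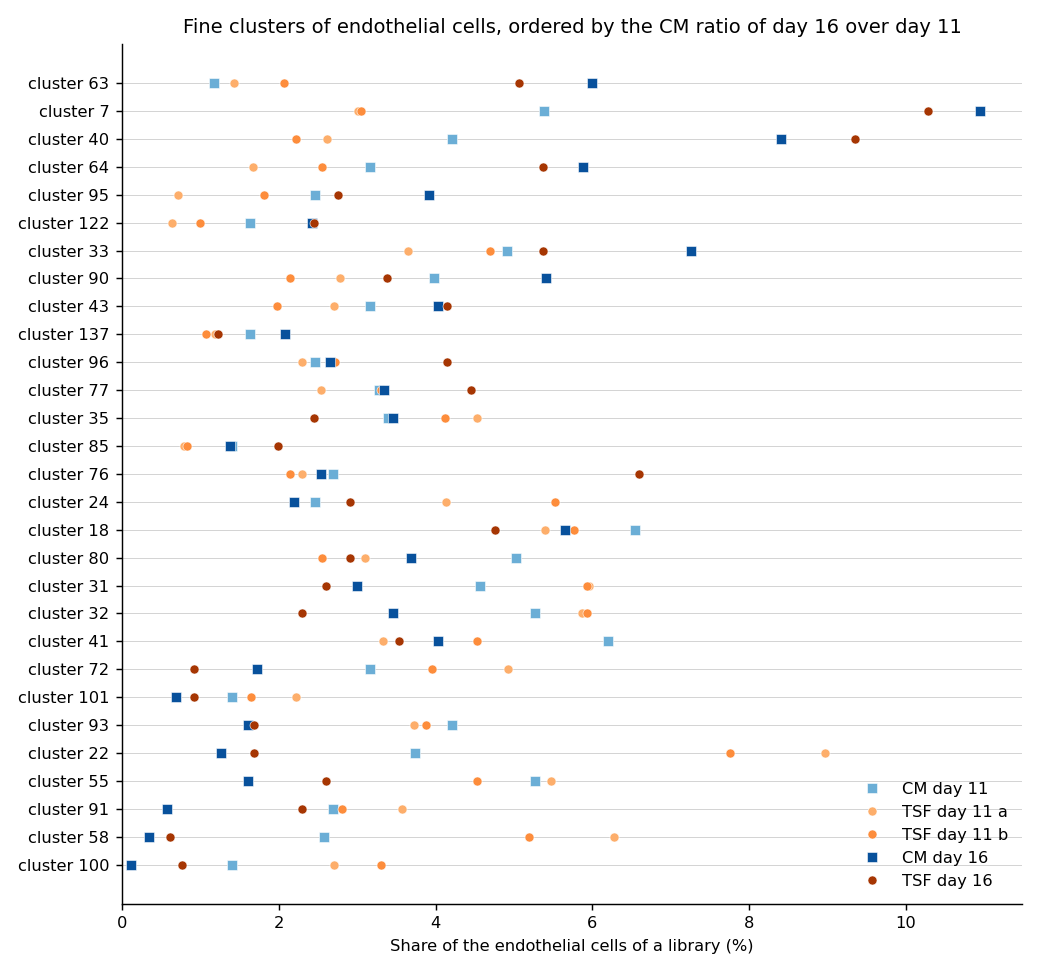
Share of the endothelial cells of a library (horizontal axis, percent) in each of 29 fine clusters with at least 50 endothelial cells, for the 5 libraries, with clusters ordered by the CM ratio of day 16 over day 11. Dark symbols (day 16) lie to the right in the upper clusters, such as 63, 7 and 40, and to the left in the lower ones, such as 58 and 100.

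A finer division by the authors, made on the cells of the endothelial class alone, gave smaller groups. It put endothelial cells in 142 sub-clusters, of which 32 held at least 50 of them. Of these 32, 29 differed by over 1.5-fold between days in CM and 27 in TSF, and 22 differed between TSF and CM at day 11 and 19 at day 16. Most sub-clusters thus differed in each comparison. Sub-clusters of the other cell types were not counted, so nothing particular to endothelial cells is read from this. At day 16, sub-cluster B.65 (0 cells in CM and 1 in TSF) had no ratio and was not counted as differing. Cell counts were small, as a pair of examples with a split by day shows. Sub-cluster B.17 held 7 cells in CM and 27 and 36 in TSF at day 11, and 1 cell in each library of day 16. Sub-cluster B.25 held 4, 1 and 1 cells at day 11 and 30 in CM and 24 in TSF at day 16. There were 2 sub-clusters of at least 20 cells that drew at least 75% of them from 1 library. Of 56 cells in B.56, 44 were from CM at day 16 (78.6%, interval 65.6 to 88.4%), and of 32 cells in B.125, 25 were from TSF at day 16 (78.1%, interval 60.0 to 90.7%). Of the cells in B.125, 21 belonged to cluster 76. Both were picked for a high count in the same library, so their overlap is not separate evidence. The depth of B.125 was above that of endothelial cells in general (median 4348 UMIs). With 1 library per group such a sub-cluster may be a feature of the library.

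Doublets, which are droplets with more than 1 cell, were not among the annotated cells and were left out of the endothelial cells and of all shares of annotated cells. They were kept in the cell and UMI totals of the libraries, in the barcode counts and in the purity of the clusters. The authors' sub-clustering of the endothelial class marked 515 of 5403 cells as doublets. The share was 7.40% in CM and 9.55% and 10.4% in TSF at day 11, and 8.67% in CM and 11.7% in TSF at day 16. Among the other cells the share was 5.73%, 7.49%, 6.90%, 5.18% and 4.22% in the same order, so the TSF library of day 16 had the highest doublet share in the endothelial class and the lowest elsewhere. With doublets and unknown cells kept in the denominator, the endothelial share at day 16 was 0.554 times as large in TSF as in CM.

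The last comparison was of endothelial genes and vessel ligands in the cancer cells of day 16, for which the authors' deposited table gives levels per gene. Cancer cells are epithelial and should lack endothelial markers, so their values give the level at which these genes were found in another cell type. Whether the RNA came from the cancer cells themselves or from endothelial cells was not tested. There were 29 cancer cells in CM (median 27679 UMIs) and 139 in TSF (median 26615 UMIs). Levels are given as CP10k, the UMIs of a gene scaled to 10000 per cell and averaged over the cells. Taking 3 counts as the limit that a count of 0 allows, a gene seen in none of the 29 CM cells could still be found in up to 10.3% of such cells, and in none of the 139 TSF cells in up to 2.16%. The exact interval of a count of 0, which is used where intervals are compared, reaches 11.9% and 2.62%.

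All 4 defining markers were near 0 in cancer cells. Pecam1 (ENSMUSG00000020717, GRCm38 chromosome 11, 106654217 to 106750628, minus strand) was seen in 1 CM cell and 9 TSF cells, at 0.0351 and 0.0568 CP10k. Cdh5 (ENSMUSG00000031871, chromosome 8, 104101625 to 104144511, plus strand) was seen in 3 CM cells and 6 TSF cells, at 0.0237 and 0.0387 CP10k. Cldn5 (ENSMUSG00000041378, chromosome 16, 18776847 to 18778262, plus strand) was seen in no CM cell and 6 TSF cells, and Kdr (ENSMUSG00000062960, chromosome 5, 75932827 to 75978458, minus strand) in no CM cell and 3 TSF cells. The highest share among these was 10.3% of cells (Cdh5 in CM, interval 2.19 to 27.4%).

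Of 24 pan-endothelial genes, 6 were seen in 10% or more of cancer cells in CM or TSF, as were 42.9% of the 23771 genes in the table. The pair seen most were Flt1, a VEGF receptor that also acts as a decoy, in 62.1% of CM and 63.3% of TSF cells, and Eng (endoglin), a co-receptor for TGF-beta, in 79.3% and 64.0%. Their levels were near equal, at 0.483 and 0.510 CP10k for Flt1 and 0.563 and 0.533 for Eng. The others were Cdh5, the secreted vessel protein gene Egfl7 (17.2% and 31.7%), the tetraspanin gene Tspan7 (3.45% and 10.1%) and the receptor gene Tie1, which was listed at 0 in CM and seen in 24 TSF cells (17.3%, interval 11.4 to 24.6%).

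Of all genes in 10% or more of cancer cells, 10121 were seen in both libraries, and 15.4% of them were higher in TSF by over 1.5-fold in mean CP10k while 29.9% were lower. Among the endothelial genes past 10%, Cdh5, Egfl7 and Tspan7 were higher in TSF by over 1.5-fold. Tspan7 and Tie1 reached 10% of cells in TSF only, the library in which they are high, so nothing is read from this count. Cdh5 reached it in CM only, and its share of cells was lower in TSF (4.32%) although its mean level was higher. The shares of cells of Cdh5, Egfl7 and Tspan7 had overlapping intervals, and Cdh5 and Tspan7 rested on 3 CM cells and 1 CM cell. The summed level of the 24 genes was 1.28 CP10k in CM and 1.95 in TSF, a ratio of 1.53. For the 4 defining markers alone the ratio was 3.17, and for the 18 genes under 10% of cells in both libraries it was 5.47, but such genes were at or near 0 in 29 CM cells, and 15 of the 24 were seen in none of them.

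Of 12 genes that mark capillaries and other vessel types, Plvap (a protein of capillary openings) and Efnb2 (an arterial ligand for Eph receptors) reached 10% of cancer cells. Plvap was seen in 27.6% of CM and 23.0% of TSF cells, and Efnb2 in 58.6% and 54.0%. The summed level of the 12 was 1.02 times as high in TSF as in CM. None of 6 lymphatic genes and none of 5 pericyte genes reached 10%, and the highest shares among them were 3.45% and 0.719%.

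Of 20 ligands that act on endothelial cells, 14 reached 10% of cancer cells in CM or TSF, beside 42.9% of all genes in the table. Vegfa, the main growth factor for vessels, was seen in 18 of 29 CM cells (62.1%, interval 42.3 to 79.3%) and 67 of 139 TSF cells (48.2%, interval 39.7 to 56.8%), at 0.583 and 0.622 CP10k. Vegfb was seen in 62.1% and 72.7% of cells and Vegfc, which also acts on lymphatic vessels, in 17.2% and 25.2%. The levels of these 3 VEGF genes in TSF were 1.07, 1.10 and 1.17 times those in CM.

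Of the 14 ligands, 6 were higher in TSF by over 1.5-fold in mean CP10k, beside 15.4% of the 10121 genes seen in both libraries. Angptl4, seen in no CM cell, has no ratio and is not among the 6. Of the 6, 4 rested on 1 to 3 CM cells. Pgf and Angpt1, like Angptl4 and Adm, reached 10% of cells in TSF only, and Sema3a in CM only, so the count is a description. The 6 were the VEGF family member Pgf (5.01-fold, 2 CM and 20 TSF cells), Angpt1 (5.69-fold, 1 and 25 cells) and Angpt2 (2.52-fold, 3 and 29 cells), which are ligands of the endothelial receptor Tek, and Pdgfb (2.49-fold, 3 and 21 cells), which draws pericytes to vessels. Sema3f, a guidance factor that repels endothelial cells (2.35-fold), and Thbs1, an inhibitor of vessel growth (1.70-fold), were the other two. Angptl4 was listed at 0 in CM and was seen in 22 TSF cells (15.8%, interval 10.2 to 23.0%). Sema3a was lower (0.296-fold, 3 CM and 4 TSF cells). Apln (0.861-fold), Jag1 (0.993-fold) and Adm (1.18-fold) stayed within 1.5-fold.

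The intervals of the shares of cells overlapped between CM and TSF for every one of the 14 ligands. Ratios that rest on 1 to 3 CM cells, as for Pgf, Angpt1, Angpt2, Pdgfb and Sema3a, are not resolved at this depth. Among 5 adhesion receptors that endothelial cells use to hold leukocytes, Icam1 was seen in 17.2% of CM and 29.5% of TSF cancer cells (2.83-fold in mean CP10k), and Vcam1 in 75.9% and 81.3% (1.20-fold). The selectin gene Sele was seen in no cancer cell of either library.

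**Figure D5:**
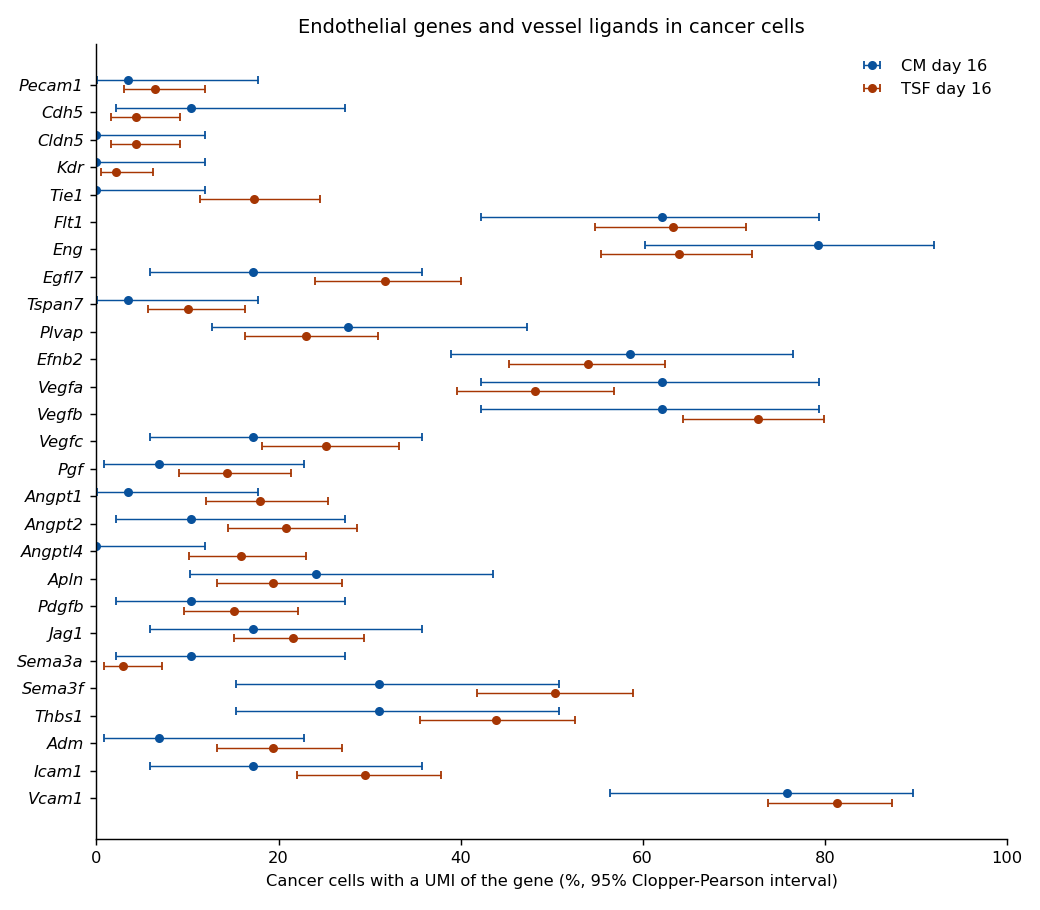
Percent of cancer cells with a UMI (horizontal axis) for the 4 defining endothelial markers and for all listed endothelial genes, vessel ligands and adhesion receptors seen in 10% or more of cancer cells in CM or TSF at day 16, with 95% Clopper-Pearson intervals. The defining markers lie between 0% and 10.3%, Eng, Flt1, Efnb2, Vegfa, Vegfb and Vcam1 lie near or above 48.2%, and the intervals of CM and TSF overlap for all genes drawn.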

How the data were processed

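Lungs were dissociated, pooled within a group and profiled with 10x Genomics 5' chemistry by the authors. Per the labels' processing notes, Cell Ranger, Seurat 4.1.0 and the genome builds mm10 and GRCm38.p6 were used. The authors' methods describe a customised SoupX correction of ambient RNA, filters on UMIs, genes and mitochondrial percent, clustering of merged cells and annotation by hand. Both the correction and the joint clustering can move levels and cluster sizes. The deposited cell table gives corrected UMI counts and gene counts per cell, the percent of mitochondrial UMIs, embedding coordinates (a score, not used for any result) and cell types. The smallest cell in it had 800 UMIs, the fewest genes were 202 and the highest mitochondrial percent was 9.99. It also holds 2 libraries that are not among the samples, which were not used. For cancer cells of day 16, the deposited gene table gives mean CP10k and counts of cells with a UMI. Its fold changes, p-values, q-values and ranking values, and the table of enrichment scores, are the authors' comparisons and were not used.

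Here the cells of type Endothelial were counted per library. Shares have Clopper-Pearson intervals and ratios exact conditional intervals (for TSF at day 11, from pooled counts), all for counting error at the 95% level. The intervals of shares and of ratios of shares were tested on simulated data. Those for endothelial cells per cell of another type were not. A ratio past 1.5-fold was counted, and clusters or types needed 50 cells. Named genes were the 4 markers and each list member in 10% or more of cancer cells in CM or TSF. Denominators, UMI and mitochondrial minima or maxima, and single TSF libraries were tried as alternatives. The members and gene lists were chosen with earlier results of these data known. Coordinates came from GENCODE M21. Computation used scipy 1.17.1, pandas 2.3.3 and numpy 2.4.6 under Python 3.11.15, and plots matplotlib 3.10.9.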

Additional observations from a re-analysis of the deposited data

Results flagged for a closer look

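The endothelial cell ratios of TSF to CM lay above 1 for TSF a and TSF b at day 11 and below 1 at day 16 under most denominators. The difference between days was not tested, since each group had 1 sample. The log2 ratio of TSF to CM at day 16 minus the mean log2 ratio of day 11 was -0.99 for the share of annotated cells and -0.45 for the share of non-immune cells. For endothelial cells per myofibroblast it was -0.81, per fibroblast -0.81, per ACT1 cell -1.09 and per ACT2 cell -1.21. Per LEC it was -0.54, from 5 to 11 LECs in a library, and the intervals of both days held 1. For the non-immune share (0.979 to 1.15), myofibroblasts (0.835 to 1.38) and fibroblasts (0.941 to 1.27) the interval of day 11 held 1. In those cases only the ratio of day 16 was apart from 1. The ratio to pericytes was below 1 at both days and is not among these results.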

How the results depend on the processing

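Of 67 alternatives, 51 left a result within its counting interval or within 1.5 times a count. The ratio of endothelial shares, TSF to CM at day 16, was 0.726 without granulocytes, 0.777 among non-immune cells and 0.616 among cells with at least 2000 UMIs. For day 16 to day 11 in TSF these values were 0.717, 0.779 and 0.584, and 0.453 in cells with at most 5% mitochondrial UMIs. In that last setting the CM ratio of day 16 to day 11 was 0.924. At day 16, dividing by the median of other non-immune cells turned the ratio of UMIs to 1.00 and that of genes to 1.02, and moved that of mitochondrial percent to 0.953. Among cells with 1500 to 3000 UMIs the ratio of genes was 0.994. The summed endothelial level in cancer cells had a ratio of 3.17 for the 4 markers and 5.47 for genes under 10% of cells. By intervals in place of the fold, 2 clusters were counted at day 16 and 10 between days in CM. The alternatives for clusters and the 5.47 were chosen after seeing the data, and the cause was not tested for any of these. No paired analysis was possible because each group had 1 sample. Leaving out TSF library a or b gave share ratios of 1.08 to 1.10 at day 11 and 0.527 to 0.540 between days. With 1 sample per group, differences between mice set a limit that depth does not.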
